A study of Caenorhabditis elegans with 2 samples.

Results

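The 846 regions described here are the strong promoter peaks of the CEH-9 chromatin immunoprecipitation sequencing (ChIP-seq) data that lie away from small RNA genes. They were selected on the authors' pooled peak list, which holds 30000 entries ordered by a signal value. The 3000 strongest entries were kept, and 232 of them were dropped because the summit, the position of the highest signal, lay within 100 bp of a small RNA gene, which here means genes for transfer, small nucleolar and small nuclear RNAs and for the RNA components of the signal recognition particle, RNase MRP and RNase P. A further 883 summits in coding sequence and 1039 summits over 1 kb from the transcription start site (TSS) of any protein-coding transcript were left out. Signal and position therefore define the members and are given as description. "Strong" always means ranks 1 to 3000 of the pooled list, and "promoter" means outside coding sequence and within 1 kb of a coding TSS.

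The series has 1 group of 2 biological replicates. Whole late embryos of pooled sex were used, 4.75 h past synchronization, which was done by bleaching eggs. The strain of both replicates was OP202, of genotype unc-119(ed3) III with the transgene wgIs202. The transgene gives a CEH-9 protein tagged at its C terminus with GFP-FLAG, and the antibody was against GFP. The labels name no mutation of the animal's own ceh-9 gene, and no untagged strain or input library was analysed here. Peaks of a single condition are not replicates of one another. All intervals below are exact binomial (Clopper-Pearson) 95% intervals that reflect counting error among peaks or genes and nothing else, and no p-value is given. Read depth is unknown, because the files give no counts of reads. Coordinates are those of the ce11 build, which is the same assembly as WBcel235.

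CEH-9 is a homeodomain transcription factor. Homeodomains commonly contact short AT-rich sites with a TAAT core, and such factors act by binding promoters and enhancers and changing the transcription of nearby genes. In Caenorhabditis elegans many promoters are short, neighbouring genes often start back to back from a shared stretch of DNA, and ChIP-seq of many different factors gives signal at the same open promoters. A peak places the tagged protein, or chromatin precipitated with it, near a gene, and does not show that the gene is regulated.

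The sequences under 6 strong promoter summits are printed here, and 3 of them were chosen because they hold a GC-rich word, GCGCGC, that the later results return to. Each sequence is the plus strand from 75 bp before to 75 bp after a summit, from the RefSeq genome sequence of the same assembly, and capitals mark matches on either strand to the 19 short motifs searched. The atx-2, nmad-1 and sas-5 windows are shown because GCGCGC lies close to the summit in them, so their number does not show how common the word is. The strongest W01D2.3 peak and the tba-7 and F08G2.5 peaks had more signal than the sas-5 peak. Their windows lack the word and are not printed. The third base of the word is at -3 bp from the summit in atx-2, at -12 bp in nmad-1 and at -7 bp in sas-5, where negative is towards lower coordinates. The T13C5.6 and K12H4.5 windows are shown as the strongest members, and the idhg-1 window as a strong member of low GC content.
atx-2, chrIII:10461227-10461377: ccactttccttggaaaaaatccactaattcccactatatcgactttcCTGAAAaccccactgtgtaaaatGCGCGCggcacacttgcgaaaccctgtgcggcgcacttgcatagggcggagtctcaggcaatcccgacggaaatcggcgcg
nmad-1, chrIII:5555078-5555228: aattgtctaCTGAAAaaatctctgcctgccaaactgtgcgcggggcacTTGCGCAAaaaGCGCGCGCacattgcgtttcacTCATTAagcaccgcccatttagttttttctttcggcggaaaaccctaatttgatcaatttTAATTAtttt
sas-5, chrV:11610571-11610721: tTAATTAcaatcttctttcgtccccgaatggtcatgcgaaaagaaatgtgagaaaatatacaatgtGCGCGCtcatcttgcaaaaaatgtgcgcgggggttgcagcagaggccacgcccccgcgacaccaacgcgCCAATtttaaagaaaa
T13C5.6, chrX:6207769-6207919: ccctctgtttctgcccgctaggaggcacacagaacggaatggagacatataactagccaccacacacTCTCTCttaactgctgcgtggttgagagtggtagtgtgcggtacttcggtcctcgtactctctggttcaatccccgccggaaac
K12H4.5, chrIII:8043883-8044033: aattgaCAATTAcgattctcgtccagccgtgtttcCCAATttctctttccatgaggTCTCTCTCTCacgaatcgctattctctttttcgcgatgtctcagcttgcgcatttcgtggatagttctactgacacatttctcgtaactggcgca
idhg-1, chrIII:4568574-4568724: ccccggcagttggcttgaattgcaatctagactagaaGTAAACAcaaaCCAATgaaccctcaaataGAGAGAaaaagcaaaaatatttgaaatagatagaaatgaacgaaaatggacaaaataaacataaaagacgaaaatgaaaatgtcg
The sas-5 window holds the homeodomain core TAATTA near its left edge, and the nmad-1 window holds it near its right edge. The nmad-1 window also holds the core TAATGA, printed as TCATTA on this strand, starting 6 bp after the summit. The K12H4.5 window holds TAATTG, another such core, near its left edge. The atx-2, T13C5.6 and idhg-1 windows hold none of the 4 homeodomain cores searched.

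The strongest member lay upstream of T13C5.6, which encodes a protein with a phosphatidic acid phosphatase type domain. It spanned positions 6207634 to 6208053 of chromosome X, had a pooled signal of 211.2 and was rank 10 of the pooled list. The same position was rank 17 in replicate 1 and rank 9 in replicate 2, so both replicates placed it near the top. Its summit was 157 bp upstream of the TSS (offset -157) and at the gene C14F11.14, annotated only as noncoding RNA at 6207835 to 6207981. The printed window also holds a B box, an internal promoter element of genes read by RNA polymerase III, in the lower-case letters near its right end, and a stretch of 36 bases that occurs more than once in the genome.

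The next members by signal lay at genes of varied function. The peak at K12H4.5, an uncharacterized gene, had signal 171 and ranks 28 and 18 in replicates 1 and 2, and its summit was 529 bp upstream (-529). The peak at atx-2, the worm ataxin-2, an RNA-binding regulator of translation and cell division, had signal 150.1 and ranks 51 and 25, with its summit 87 bp upstream (-87) and between genes. It also lay upstream of ecps-1, a gene for a proteasome-associated protein that starts on the other strand (-751). All 3 positions were thus among the 51 strongest of either replicate.

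Further members of the same signal range were shared by the replicates less evenly. The peak at nmad-1, annotated as a DNA N6-methyl adenine demethylase, had signal 115.7 and ranks 58 and 92, and it lay between nmad-1 (-219) and the mitochondrial hydrolase gene hach-1 (-297). The peak at ears-2, a mitochondrial glutamyl-tRNA synthetase gene, had signal 115.8, with rank 342 in replicate 1 and rank 34 in replicate 2. The peak at W01D2.3, which encodes a receptor expression-enhancing protein, had signal 118.5 and rank 22 in replicate 2 but no summit within 100 bp in the list of replicate 1. A neighbouring member at the same gene had signal 95.22 and ranks 92 and 346. Both W01D2.3 summits lay within 100 bp of genes annotated as noncoding RNA.

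Other strong members lay at metabolic, cytoskeletal and centriole genes. The peak at idhg-1, which encodes an isocitrate dehydrogenase subunit of the citric acid cycle, had signal 101.7 and ranks 121 and 105. The peak at ppat-1, the gene for the first enzyme of purine synthesis, had signal 106.2, ranks 66 and 299, and an intronic summit 595 bp downstream of the TSS. The peak at sas-5, which is required for centriole duplication, had signal 89.5 and ranks 114 and 135, and its summit lay 91 bp upstream (-91). The tba-7 peak, at an alpha-tubulin gene, had signal 107.7 and ranks 64 and 114, but its intronic summit lay at genes annotated as noncoding RNA. The peaks at F08G2.5 (signal 101.7, ranks 88 and 134) and hmg-1.1 (signal 99.41, ranks 806 and 60), which encodes an HMG box protein, complete the strongest members. The F08G2.5 summit also lay within 100 bp of a gene annotated as noncoding RNA.

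**Figure D1:**
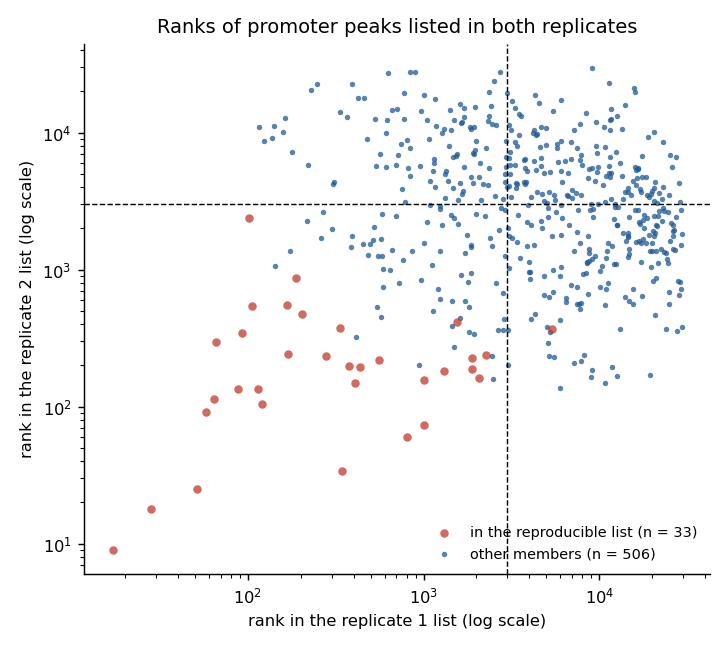
Rank of each member in the list of replicate 1 (x axis) and replicate 2 (y axis), both on log scales, for the 539 members with a summit within 100 bp in both lists; dashed lines mark rank 3000. Members in the reproducible list (33 red points) sit towards the lower left, and the 506 other members spread widely, many of them strong in a single replicate.

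Most members were strong in the pooled list without being strong in both replicates. A summit within 100 bp was listed in replicate 1 for 590 members (69.7%) and in replicate 2 for 779 (92.1%), in both for 539, and in neither for 16. Among the 3000 strongest of replicate 1 were 237 members (28.0%, 25.01 to 31.2%), against 7.45% of the whole pooled list. Among the 3000 strongest of replicate 2 were 469 members (55.4%, 52.01 to 58.8%), against 9.21% of the pooled list. Only 106 members (12.5%, 10.4 to 14.95%) were among the 3000 strongest of both, against 1.29% of the pooled list. Of the rest, 131 were strong in replicate 1 only, 363 in replicate 2 only and 246 in neither. The pooled list was made from both replicates, so these shares are not independent of the choice of members and nothing is read from the gap to the pooled list.

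The share of members strong in both replicates fell with pooled rank. The pooled rank was itself made from both replicates, so a fall is partly built into it and is given as description. Of members at pooled ranks 1 to 207, 32 of 36 (88.9%) were among the 3000 strongest of both replicates, and of those at ranks 208 to 500, 43 of 84 (51.2%). At ranks 501 to 1000 it was 24 of 158 (15.2%), at ranks 1001 to 2000 6 of 285 (2.11%), and at ranks 2001 to 3000 1 of 283 (0.353%). The authors' reproducible list holds 207 peaks, the 207 strongest of the pooled list (0.69% of it), and 36 members (4.26%) were in it. The share strong in both was 12.5% in members, against 9.89% in the 566 strong intronic peaks, 7.61% in the 473 strong distal intergenic peaks, 6.68% in the 883 strong coding-exon peaks and 55.6% in the 232 strong peaks at small RNA genes. Intervals for members (10.4 to 14.95%) and coding-exon peaks (5.13 to 8.54%) do not overlap, and those for members and intronic peaks (7.56 to 12.7%) do. The classes were not matched for pooled rank. Of the coding-exon peaks 1.47% were in the reproducible list, against the 4.26% of members.

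The rank limit cut through a continuous range of values. Pooled signal in the members ran from 45.02 to 211.2, with a median of 51.1. The weakest member, at Y48G9A.7, was rank 2999, and the first promoter summit past the limit, at mnr-1, had the same signal of 45.02. The authors' −log10 q had a median of 0.513 in members and a highest value of 2.49, against a median of 0.107 in the 7762 promoter summits past rank 3000, called weaker promoter summits below. It had already fallen to 1.27 at rank 345 (rps-28), and its upper quartile in members was 0.679. Most members therefore had a large q, and "strong" is a statement of rank only, also for the genes named below. The member farthest from a TSS was at 999 bp (C34E7.3) and the nearest strong noncoding summit left out was at 1003 bp (F57C12.6). The peak of ppat-1 was the member nearest to a small RNA gene, at 104 bp, and 96 strong summits that met the promoter conditions were left out for lying at such genes.

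Around the TSS, members lay upstream somewhat more often than weaker promoter summits did, and the share was highest at the top ranks. Upstream summits made up 523 of 846 members (61.8%, 58.5 to 65.1%), against 58.6% (57.5 to 59.7%) of weaker promoter summits, so the intervals overlap. Leaving out coding sequence favours upstream positions in both sets. By rank, 75% of members were upstream at 1 to 207, 73.8% at 208 to 500, 61.4% at 501 to 1000, 59.3% at 1001 to 2000 and 59.4% at 2001 to 3000. The fullest 100 bp step was the first upstream of the TSS, with 87 members (10.3%), against 9.38% of weaker promoter summits. The first 100 bp downstream held 31 members (3.66%), against 3.99% of weaker promoter summits. By annotation, 378 members (44.7%) lay between genes, 399 (47.2%) in introns, 52 (6.15%) in 5′ untranslated regions and 17 (2.01%) in other exons. In weaker promoter summits those shares were 41.4%, 48.9%, 5.66% and 4.06%.

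**Figure D2:**
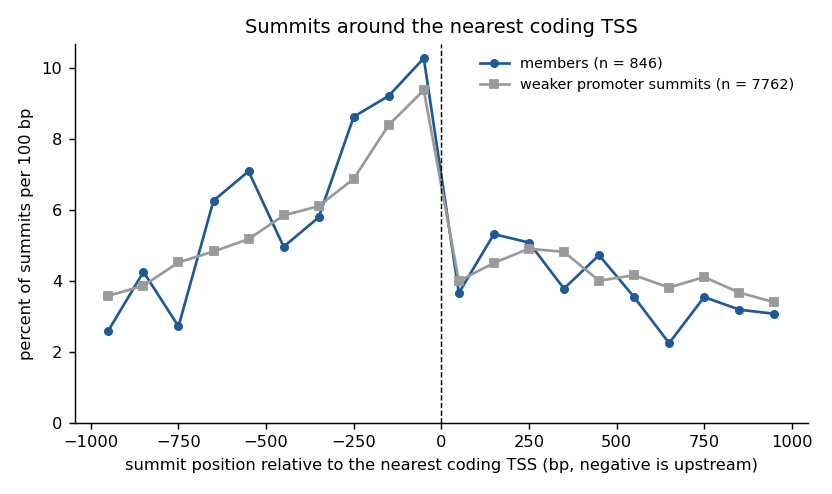
Percent of summits in each 100 bp step (y axis) by position relative to the nearest coding TSS in bp (x axis, negative is upstream), for members and for weaker promoter summits. Both curves are highest just upstream of the TSS, at 10.3% in members and 9.38% in weaker promoter summits, and drop to 3.66% in members and 3.99% in weaker promoter summits just downstream.

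A coding gene start on the other strand nearby was more frequent at members. The TSS of another coding gene on the opposite strand lay within 1 kb for 128 members (15.1%, 12.8 to 17.7%), against 10.4% (9.70 to 11.1%) of weaker promoter summits, and the intervals do not overlap. In 124 members (14.7%, 12.3 to 17.2%) the nearest such pair of genes started back to back, against 9.70% (9.05 to 10.4%) of weaker promoter summits, and in the other 4 members the genes faced each other. By rank, such a neighbour was present for 41.7% (25.5 to 59.2%) of members at 1 to 207, 19.1% at 208 to 500, 15.2% at 501 to 1000, 14.04% at 1001 to 2000 and 11.7% at 2001 to 3000. Examples among the strongest are spe-48 with Y51F10.11 (signal 92.16, offsets -27 and -153), chaf-2 with Y71G12B.30 (signal 79.67, -249 and -250), krr-1 with gei-6 (signal 77.47, -121 and -221) and jmjd-1.2 with F29B9.11 (signal 75.86, -369 and -421). The genes krr-1 and chaf-2 encode a ribosome assembly protein and a chromatin assembly factor subunit, jmjd-1.2 a histone demethylase, and F29B9.11 a cytochrome c oxidase subunit. These gene pairs were chosen after their values were seen.

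Noncoding genes outside the excluded classes lay within 100 bp of 85 members (10.0%, 8.10 to 12.3%), against 6.67% (6.13 to 7.25%) of weaker promoter summits, 9.89% of strong intronic peaks and 20.3% (16.8 to 24.2%) of strong distal intergenic peaks. At ranks 1 to 207 it was 9 of 36 members (25%), and at ranks 2001 to 3000 it was 20 of 283 (7.07%). By annotation 78 members were at genes typed as noncoding RNA, 5 at pseudogenes, 2 at miRNA genes and 1 at a lincRNA gene, with 1 member counted at 2 types. Besides T13C5.6 and tba-7, members at other noncoding genes include those named at W01D2.3, F08G2.5, dhs-8, vang-1, mrck-1, tbb-2 and his-24. The B box pattern was found in 13 member windows (1.54%), against 1.28% of weaker promoter windows, 0.786% of windows at coding TSSs and 45.7% of windows at strong small RNA gene peaks. Among the 85 members at other noncoding genes 5 held it (5.88%, 1.94 to 13.2%). Words of 36 bases that occur more than once in the genome were present in 93 member windows (10.99%), against 11.5% of weaker promoter windows and 65.1% of windows at strong small RNA gene peaks.

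Members were richer in G and C than weaker promoter summits. The median GC content of the window, 75 bp to each side of the summit, was 42.4% in members (quartiles 36.4 and 48.3%), against 37.7% in weaker promoter windows (32.5 and 43.7%) and 35.8% in windows centred on the 19973 coding TSSs (32.5 and 40.4%). The whole pooled list had a median of 40.4%. Other strong peaks were as rich or richer, at 42.4% in introns, 44.4% in distal intergenic sequence, 47.7% in coding exons and 49.01% at small RNA genes. Within members the median was 47.02% at ranks 1 to 207, 42.4% at ranks 208 to 500, 44.4% at ranks 501 to 1000, 41.7% at ranks 1001 to 2000 and 41.1% at ranks 2001 to 3000. The part of base composition in the signal of these lists was not tested.

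**Figure D3:**
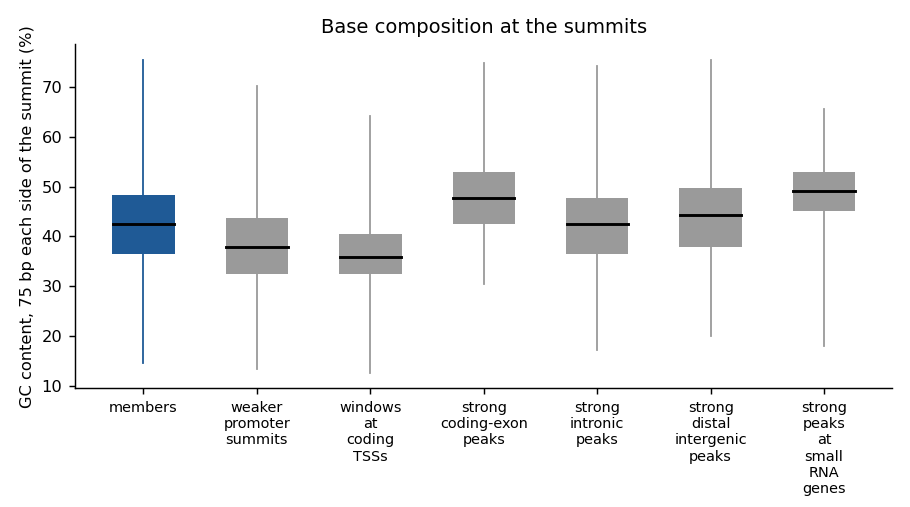
GC content of windows around the summit in percent (y axis) for members and 6 other sets of windows (x axis); boxes span the quartiles, black lines are medians and thin lines run from the lowest to the highest window. The member median of 42.4% lies above that of weaker promoter summits (37.7%) and of windows at coding TSSs (35.8%) and equals that of strong intronic peaks.

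Over all windows homeodomain cores were no more frequent at members than at other promoter sequence, and at matched GC content the direction varied with the core and the class. Motifs were searched by exact letters on both strands of the same windows, and overlapping matches were counted once per window. TAATTA was present in 50 member windows (5.91%, 4.42 to 7.72%), against 6.65% of weaker promoter windows and 6.60% of windows at all coding TSSs. TAATTG was in 66 members (7.80%, 6.09 to 9.82%), against 10.4% and 11.1%, TAATGG in 3.78%, against 4.82% and 5.59%, and TAATGA in 5.91%, against 7.18% and 9.96%. AT-rich words are rarer in windows of higher GC content, so TAATTA was also compared within classes of equal composition. In windows of 20 to 30% GC it was in 15 of 69 members (21.7%, 12.7 to 33.3%), against 11.8% (10.1 to 13.7%) of weaker promoter windows, at 30 to 40% in 9.19% against 7.72%, and at 40 to 50% in 2.78% against 3.85%. TAATTG was in 18.8% of members and 14.3% of weaker windows in the lowest of these classes, in 8.46% and 12% in the next, and in 6.79% and 7.69% in the third. In the lowest class TAATGG was in 6 of 69 members (8.70%, 3.258 to 17.97%), against 4.79% of weaker windows, and TAATGA in 4 of 69 (5.80%), against 10.2%. For each of the 4 cores the intervals of members and weaker windows in the lowest class overlap.

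For the AT-rich elements TGATAA and TATAAA, which set was higher depended on the GC class. The GATA factor site TGATAA was in 6.86% of members, against 10.0% of weaker promoter windows and 15.8% of TSS windows. Within GC classes it was in 10.1% of members and 14.4% of weaker windows at 20 to 30%, in 11.76% and 11.86% at 30 to 40%, in 4.01% and 7.12% at 40 to 50%, and in 3.31% and 2.74% at 50 to 60%. TATAAA, the TATA box core, was in 12.5% of members, against 15.4% of weaker promoter windows and 21.8% of TSS windows. Within the same classes it was in 24.6% of members and 30.2% of weaker windows, then in 17.65% and 17.03%, in 9.57% and 8.02%, and in 5.30% and 4.29%, so it was lower in members in the lowest class and slightly higher in the other 3. TTTCAG, the splice acceptor that also serves trans-splicing near gene starts, was in 22.2%, against 26.7% and 37.4%. Within the same classes it was in 37.7% of members and 35.2% of weaker windows, then in 29.8% and 31.6%, in 20.4% and 19.9%, and in 7.95% and 10.1%.

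Some further elements were lower in members over all windows. The forkhead sites TGTTTAC and TGTTTGC were in 1.42% and 2.84%, against 1.80% and 3.29% of weaker windows. CACGTG was in 2.60% of members and 2.82% of weaker windows, CCAAT in 25.9% and 27.2%, the T block TTTTTTTT in 13.2% and 17.97%, and GTTCGA in 4.37% and 4.78%. Other elements were higher in members over all windows, with intervals that overlap those of weaker windows. They were GAGAGA in 12.5% of members and 11.4% of weaker windows, CAGCTG in 3.43% and 3.002%, the promoter word CTGCGTCT in 2.25% and 1.70%, and TGACGTCA, the cyclic AMP response element, in 0.946% and 0.863%. Within GC classes these directions also varied. GAGAGA was in 8.70% and 5.35% at 20 to 30% GC and in 10.3% and 8.75% at 30 to 40%. At 40 to 50% it was in 12.35% and 15.7%, and at 50 to 60% in 17.2% and 21.96%. In the same 4 classes CTGCGTCT was in 0% and 0.240%, 0.735% and 0.739%, 3.70% and 2.95%, and 2.65% and 4.97%. Of the 19 motifs searched, 6 were more frequent in members than in weaker promoter windows when all windows were counted.

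Among those 6 was the GC-rich word GCGCGC. It was in 49 member windows (5.79%, 4.32 to 7.59%), against 2.90% (2.54 to 3.30%) of weaker promoter windows and 1.21% (1.06 to 1.37%) of windows at all coding TSSs. Within classes of equal GC content the intervals of members and weaker windows overlap. At 30 to 40% GC the word was in 2.21% of members and 1.83% of weaker windows. At 40 to 50% it was in 7.10% (4.55 to 10.5%) and 4.01% (3.27 to 4.87%). At 50 to 60% it was in 11.3% (6.70 to 17.4%) and 8.75% (6.58 to 11.3%). Strong coding-exon peaks, which are richer in G and C, had it in 1.02%, strong intronic peaks in 2.47% and strong distal intergenic peaks in 3.17%. The related palindrome TTGCGCAA, a site of the C/EBP type, was in 9 members (1.06%, 0.488 to 2.01%), against 0.335% (0.219 to 0.490%) of weaker windows and 0.240% of TSS windows. The intervals of members and weaker windows overlap slightly. The share with GCGCGC was already known to be raised in the reproducible peaks of these libraries, so the values here are a description and no independent evidence.

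Most of the excess of GCGCGC was at the top of the list and at members that both replicates shared. Of the 120 members at ranks 1 to 500, 22 had it (18.3%, 11.9 to 26.4%), against 3.797% at ranks 501 to 1000, 4.91% at ranks 1001 to 2000 and 2.47% at ranks 2001 to 3000. Weaker promoter summits had it in 3.11% up to rank 10000 and in 2.82% at ranks 10001 to 30000. Of the 106 members among the 3000 strongest of both replicates, 21 had it (19.8%, 12.7 to 28.7%), against 4.58% of those strong in replicate 1 only, 4.41% in replicate 2 only and 2.44% in neither. In the replicates' own lists the promoter summits at ranks 1 to 500 had it in 9 of 134 (6.72%, 3.12 to 12.4%) in replicate 1 and in 15 of 120 (12.5%, 7.17 to 19.8%) in replicate 2. The pooled share lies above the interval of replicate 1 alone and within that of replicate 2.

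At like GC content, members strong in both replicates stood apart from both other members and weaker windows in GCGCGC only in the class of 40 to 50% GC. In the class of 40 to 50% GC, 12 of 38 members strong in both replicates had GCGCGC (31.6%, 17.5 to 48.7%), against 3.85% of the 286 other members and 4.01% of 2444 weaker promoter windows. In the class of 50 to 60% it was 7 of 25 (28.0%, 12.1 to 49.4%), against 7.94% (3.87 to 14.1%) and 8.75% (6.58 to 11.3%). That interval overlaps the one of other members but not the one of weaker windows. In the class of 30 to 40% it was 1 of 37 (2.70%, up to 14.2%), against 2.13% and 1.83%, and the intervals overlap. Upstream members had it in 8.22% and downstream members in 1.86%, while weaker upstream summits had it in 3.19%. The share of weaker downstream summits is not given here. The match lay within 25 bp of the summit in 26 of the 49 members with it (53.1%), against 89 of 225 weaker summits (39.6%). No interval was calculated for these shares, so no difference is read from them.

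**Figure D4:**
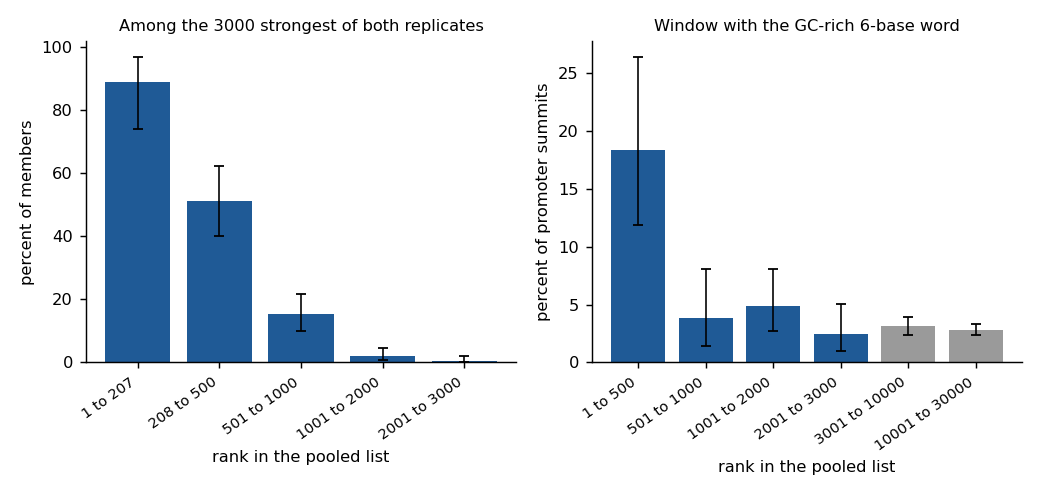
Left, percent of members among the 3000 strongest of both replicates (y axis) by rank in the pooled list (x axis), from 88.9% at ranks 1 to 207 to 0.353% at ranks 2001 to 3000. Right, percent of promoter summits whose window holds the GC-rich word, 18.3% at ranks 1 to 500 and 2.47 to 4.91% in all later classes, with members in blue and weaker promoter summits in grey; error bars are exact 95% intervals.

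The members with GCGCGC at ranks 1 to 500 lay at genes of many kinds. Besides atx-2, nmad-1 and sas-5 they included hmg-1.1, dhs-8 (a short-chain dehydrogenase, signal 91.97), K05C4.2 (a homolog of jagunal, signal 83.86), act-4 (an actin, signal 75.9) and F39G3.3 (a histone H3 lysine methyltransferase, signal 71.53). Lower in this range were mrck-1 (a kinase that regulates myosin, signal 67.8), ndua-2 (a subunit of respiratory complex I, signal 67.65), dgn-3 (a dystroglycan, signal 65.79) and hsp-1 (the constitutive heat shock protein of the Hsp70 family, signal 62.3). The third base of the word was at -1 bp from the summit at K05C4.2, at 10 bp at F39G3.3 and at -16 bp at mrck-1. In the 106 members strong in both replicates, the 6-letter words CGCACA (23.6%, against 7.30% of other members), CCGCAC (19.8%, against 5.27%) and CGCGCG (18.9%, against 3.78%) were also frequent. These genes and words were picked after their values were seen.

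The 846 members were nearest to 794 of 19973 coding genes (3.98%), and no gene group held a large part of them. Of these genes 749 had 1 member, 39 had 2, 5 had 3 and 1 had 4. The gene with 4 members was sms-3, a putative sphingomyelin synthase gene, whose peaks had signals of 65.24, 54.46, 52.43 and 48.75 and lay in introns or between genes. The genes with 3 were gei-4, which encodes a protein with a bZIP domain (best signal 74.58), F14F7.5 (70.06), egl-30, the Gq alpha subunit (66.23), Y37E3.19 (62.91) and aakg-1, a gamma subunit of AMP-activated kinase (53.9). The peaks of F14F7.5 were intronic and overlapped. Of the 794 genes, 358 also had a weaker promoter summit.

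Cytoskeleton genes had a member most often of the 30 gene lists examined. Among 68 genes for actin, tubulin and their regulators 13 had one (19.1%, 10.6 to 30.5%), against 3.98% of all coding genes. Of the 52 promoter summits at these genes, strong and weak, 15 were members (28.8%, 17.1 to 43.1%), against 9.83% of all promoter summits. The members lay at the tubulin genes tba-7 (signal 107.7), tbb-2 (54.13), tba-1 (52.97), tbb-1 (51.43) and tba-2 (47.26). Those of the actin system lay at act-4 (75.9), the profilin gene pfn-2 (78.7), the capping protein gene cap-1 (54.42), the WAVE gene wve-1 (47.16) and the myosin light chain gene mlc-3 (60.76). The dynein and dynactin genes dnc-4 (69.6), dhc-1 (56.89) and dlc-1 (45.78) completed the list. Of these 13 peaks, tba-7, pfn-2, act-4 and dnc-4 were among the 3000 strongest of both replicates. The ranks of the others show the usual spread, for example 15574 in replicate 1 and no entry in replicate 2 for dlc-1.

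Signalling, muscle and vesicle traffic genes also had more members than all coding genes did. Of 45 Notch and Wnt genes 7 had a member (15.6%, 6.49 to 29.5%), led by the planar polarity gene vang-1 (signal 85.16, ranks 334 and 376) and sel-8, a nuclear partner of Notch (73.2, ranks 1132 and 497). The others were the polarity gene prkl-1 (47.9), the presenilin gene hop-1 (47.15), the Notch ligand gene lag-2 (46.74), the cadherin gene fmi-1 (45.29) and the frizzled receptor gene cfz-2 (45.14), none of which was among the 3000 strongest of both replicates. The vang-1 summit also lay at genes annotated as noncoding RNA. Of 43 body wall muscle genes 6 had a member (13.95%, 5.30 to 27.9%), among them the dystrophin gene dys-1 (52.74), the myosin gene myo-3 (46.78) and the troponin T gene mup-2 (46.52), besides act-4 and mlc-3, which the cytoskeleton list also holds. Of 81 small GTPase genes and regulators 9 had one (11.1%, 5.21 to 20.1%), led by rab-6.2 (66.27, ranks 2664 and 363) and rab-7 (64.67, ranks 2915 and 1261). Of the promoter summits at these genes, members were 15.9% (6.64 to 30.1%) for Notch and Wnt genes, 18.75% (8.95 to 32.6%) for muscle genes and 12.5% (5.88 to 22.4%) for GTPase genes, and each interval includes the 9.83% of all promoter summits.

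The housekeeping lists of this paragraph had a member for 4.94 to 8.51% of their genes. Proteasome genes (3.03%), core and linker histones (2.5%) and heat shock protein and chaperonin genes (3.28%), given further below, were under 3.98%. Only the interval of the mitochondrial list lies above the 3.98% of all coding genes, and those of the other lists in this paragraph include it. Of 141 genes for mitochondrial respiration, import and ribosomes 12 had one (8.51%, 4.48 to 14.4%), with ndua-2 (67.65), the mitochondrial ribosomal gene mrps-9 (59.14) and ucr-2.2 (56.76) at the top. Members made up 12 of the 49 promoter summits at these genes (24.5%, 13.3 to 38.9%), against 9.83% of all promoter summits. Of 128 cell cycle and DNA replication genes 10 had one (7.81%, 3.81 to 13.9%), among them sas-5 (89.5), the cyclin-dependent kinase gene cdk-7 (67.27) and the centrosome scaffold gene spd-5 (54.16). Of 108 chromatin regulator genes 8 had one (7.41%, 3.25 to 14.1%), led by jmjd-1.2 (75.86) and swsn-3, a chromatin remodelling subunit (63.97). Translation factor and tRNA synthetase genes had 5 of 71 (7.04%, 2.33 to 15.7%), led by ears-2 and eif-3.C (64.05), and ribosomal protein genes 4 of 81 (4.94%, 1.36 to 12.2%), led by rps-24 (67.38) and rps-28 (66.43). Counting every gene with a TSS within 1 kb of a member, and not the nearest alone, raised the ribosomal protein genes to 10 of 81 (12.35%), against 946 of all coding genes (4.74%). The nucleoporin gene npp-8 (83.83, ranks 375 and 198) led the nuclear pore and transport list, with 3 of 43 (6.98%, 1.46 to 19.1%).

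Transcription factor lists were near the background of 3.98%. These lists were built from gene symbols and are not complete. Of the homeobox genes listed 5 had a member (4.95%, 1.63 to 11.2%), led by ceh-87 (62.03) and ceh-39 (58.25). The homeobox gene unc-62, not in the list, had a stronger member (65.61, rank 93 in replicate 2 and no summit in replicate 1). Of 274 nuclear hormone receptor genes 12 had one (4.38%, 2.28 to 7.53%), led by nhr-239 (69.99) and nhr-230 (62.89). The bHLH list had 2 of 40, hlh-11 (55.61) and cnd-1 (50.29), and the list of other developmental factors 7 of 188 (3.72%), led by nhl-3 (67.16) and the T-box gene tbx-34 (64.34). The product of nhl-3 has NHL repeats and is not a transcription factor, and the T-box gene mab-9, with a member of signal 72.01 and ranks 551 and 1263, is not in the list. The genes unc-62 and mab-9 were named after their values were seen. The gene of the tagged protein had no member near it. The member nearest to ceh-9 was 16692 bp away on chromosome I, at rank 2834. Germline and P granule genes had 7 of 150 (4.67%), and apoptosis and autophagy genes 4 of 51 (7.84%), led by lgg-1 (51.75) and ced-12 (51.66).

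Intestine genes, chemoreceptors, F-box and MATH genes, and detoxification enzymes had a member less often than all coding genes, with intervals below 3.98%. None of 176 intestine genes had one (upper limit 2.07%), and none of their 62 promoter summits was strong (upper limit 5.78%). Of 1310 chemoreceptor genes 14 had one (1.07%, 0.586 to 1.79%), led by srx-28 (68.23) and sre-46 (59), and of 412 F-box and MATH genes 6 (1.46%, 0.536 to 3.14%), led by fbxa-94 (53.66) and fbxb-104 (50.75). Genes for the detoxification enzymes cytochrome P450, UGT and GST had 2 of 188 (1.06%, 0.129 to 3.79%), cyp-42A1 (59.47) and gst-24 (45.5), cuticle collagens 2 of 177 (1.13%), col-47 (49.93) and col-46 (46.33), and C-type lectins 4 of 240 (1.67%), led by clec-245 (55.26) and clec-222 (49.14). Collagens, lectins, ion channels and neuropeptides were also below 3.98%, but their intervals include it. Ion channels had 6 of 256 (2.34%), led by the innexin gene inx-20 (65.2) and twk-22 (63.6), and neuropeptides 5 of 145 (3.45%), led by flp-26 (52.23) and flp-34 (50.53). Of promoter summits at chemoreceptor genes 14 of 244 were members (5.74%, 3.17 to 9.44%), and of those at intestine genes 0 of 62, against 9.83% of all, so these 2 lists were low among summits as well as among genes.

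The remaining lists had few members each. They were hedgehog-related and patched-related genes with 6 of 85 (7.06%), led by grl-15 (56.57) and ptc-1 (51.44), synaptic and pan-neuronal genes with 3 of 39 (7.69%), led by maco-1 (57.49) and rgef-1 (51.97), and splicing and RNA binding genes with 3 of 53 (5.66%), led by asd-1 (54.86) and hrpa-2 (49.8). Heat shock protein and chaperonin genes had 2 of 61, hsp-1 (62.3) and dnj-20 (61.1), core and linker histones 2 of 80, his-24 (56.71) and hil-2 (46.66), and proteasome genes 1 of 33, rpn-5 (46.64). For each of these lists the interval includes the share of all coding genes. Across the 30 lists, 18 had a higher share of genes with a member than all coding genes. Whole embryos were used, so no peak can be assigned to a tissue.

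**Figure D5:**
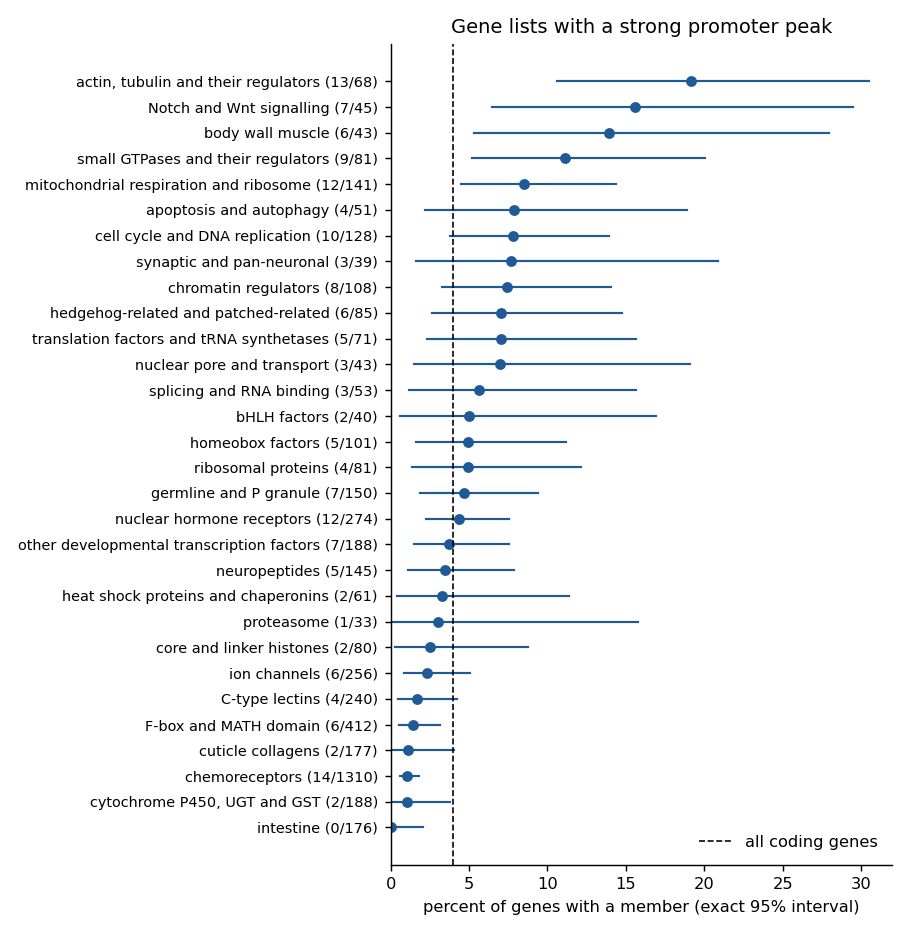
Percent of the genes of each list that are nearest to a member (x axis; points with exact 95% intervals), with members per genes of the list in brackets and the 3.98% of all coding genes as a dashed line. Actin and tubulin genes are highest at 19.1%, and intestine genes are at 0 of 176.

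Along the genome, members were spread over all 6 nuclear chromosomes. Chromosome III held 175 members (20.7%, 18 to 23.6%), against 16.1% (15.3 to 16.9%) of weaker promoter summits and 13.2% of coding genes. Chromosome I held 157 (18.6%), against 17.3% and 14.4%, and chromosome II 145 (17.1%), against 17.01% and 17.3%. Chromosome V, where many chemoreceptor genes lie, held 142 (16.8%, 14.3 to 19.5%), against 19.02% and 25%, and chromosome IV 113 (13.4%), against 15.7% and 16.4%. Chromosome X held 114 (13.5%, 11.3 to 15.96%), against 14.9% of weaker promoter summits and 13.7% of coding genes. Other strong peaks were distributed differently. Chromosome X held 34.1% (28.0 to 40.5%) of strong peaks at small RNA genes and 24.3% (20.5 to 28.4%) of strong distal intergenic peaks, and chromosome III held 27.2% (23.6 to 31.1%) of strong intronic peaks, more than its share of members.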

How the data were processed

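The authors deposited peak lists for ChIP-seq of both replicates, and the ce11 lists were used here. Per the labels, the pooled list combines both replicates with a control, each replicate list combines 1 replicate with a control, and the reproducible list derives from these. The sources used here name neither the aligner nor the peak caller, nor the reproducibility threshold. The scale of the deposited signal value per peak is not stated, so it served only for ranks inside each list. The deposited −log10 q per peak was described and not tested. A fixed length of 30000 lines per relaxed list limits what membership of a list says, and depth is unknown.

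Genes came from Ensembl release 115 and sequence from the RefSeq genome of the same assembly. Summits were matched between lists within 100 bp, windows ran 75 bp to each side of a summit, and the nearest coding TSS gave the gene. Genes were named as nearest to the 12 strongest members, the 10 members of smallest replicate rank sum, the first 2 per gene list, the 5 genes with most members, and ceh-9; other names were chosen after values were seen. The members, the 30 gene lists and the 19 motifs were chosen with earlier results of these data known, and the B box pattern, the split of GCGCGC by rank and replicate, and the 6-letter words were added after seeing the data. The ears-2 window was not printed because it holds untranslated sequence. Placement was checked on simulated summits with known answers. The motif search was checked only for GCGCGC, planted in random windows of A and T that could not hold it otherwise. The other motifs were not checked in this way. Alternatives covered each replicate alone, the rank limit, distances, windows, GC classes and the choice of a peak's gene. The tools were matplotlib 3.10.9, scipy 1.17.1 and numpy 2.4.6 under Python 3.11.15.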

Additional observations from a re-analysis of the deposited data

How the results depend on the processing

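No paired analysis was possible because there is 1 group. With the rule applied to the list of a single replicate, the number of members was 868 to 888, the upstream share 61.6 to 62.8%, the share with a TSS on the other strand 14.3 to 15.1%, the share on chromosome X 13.9 to 15.4%, and the share among the 3000 strongest of the other replicate 11.04 to 11.9%. The median GC content was 39.7 to 41.7% (39.7% without replicate 2), and the share of summits at ranks 1 to 500 with GCGCGC, added after seeing the data, 6.72 to 12.5%. At ranks 1 to 1000 there were 278 members, with 66.9% upstream, 19.8% with a TSS on the other strand, a median GC content of 44.04% and 35.6% strong in both replicates. At ranks 1 to 6000 there were 1728, with a median of 41.1% and 6.13% strong in both. A TSS within 500 bp left 520 members, 9.81% of them with a TSS on the other strand, and a TSS within 2 kb gave 57.7% upstream and 19.6% with a TSS on the other strand. The share strong in both replicates was 7.92% and 16.4% with summits matched within 50 and 200 bp, and 3.66% and 24.6% for the 1000 and 6000 strongest of each replicate. The reproducible list alone held 36 members. Of the 19 motifs, 10 were more frequent in members at 50 to 60% GC, against 6 overall. Counting every gene with a TSS within 1 kb gave 20 lists above all coding genes, against 18, with 10 ribosomal protein, 6 heat shock, 6 splicing, 4 collagen and 10 F-box genes, against 4, 2, 3, 2 and 6 by the nearest gene. Of 125 alternative values for single motifs and lists, 57 moved. For a motif this means that the member share left the interval of its main value, and for a list that its gene count rose beyond a set factor. Longer windows hold more matches in any set of windows. The count therefore does not measure how stable the comparisons with weaker windows are. The causes were not tested. Depth is unknown, and below about rank 1000 few members were strong in both replicates.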
